A study of Rattus norvegicus with 4 samples.

Results

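The genes described here encode 6 liver enzymes that break down hydroxy acids, glyoxylate, amino acids, amines and sulfur compounds: Hao2, Agxt, Fah, Got1, Maob and Tst. They were picked by gene symbol in the platform annotation, which gave 8 of the 1936 features on the array, with 2 features each for Hao2 and Agxt and 1 feature for each of the other 4 genes. For Hao2 and Agxt the first feature is the one with the lower mean ratio, so first minus second is negative by construction. The choice of genes was made with the ratios of these arrays known, so every ratio below is a description without a test. The compartments named with the genes are those used to group them: Hao2 and Agxt as peroxisomal, Fah and Got1 as cytosolic, and Maob and Tst as mitochondrial.

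Livers of male Sprague-Dawley rats were compared 24 h after an intraperitoneal injection of α-naphthylisothiocyanate (ANIT), 75 mg/kg, in olive oil, and after olive oil alone in equal volume. ANIT is a toxicant of bile duct cells and a common means of causing cholestasis in rodents. RNA from 3 rats per condition was combined into 1 pool, and the ANIT and olive oil pools competed on each of 4 spotted cDNA arrays. The ANIT pool carried Cy5 on arrays 1 and 3, while Cy3 was used for it on arrays 2 and 4. The labels are read here as saying that the arrays repeat a single pair of pools. On that reading, each SD (n = 4 arrays) holds hybridisation error and any dye effect, the spread between animals is unknown, and no p-value is given.

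Values are log2 ratios, ANIT pool over olive oil pool. That direction is likely, not stated: it rests on the labels naming olive oil as the first and ANIT as the second channel of every array, and with the opposite direction every sign below would turn. The logarithm base is likewise not given in the sources used here. Spot intensities were not used here, so a ratio says nothing of a transcript's level, and the liver label could not be checked against the level of its markers. In RNA from whole liver, fewer cells of a type and less RNA per cell cannot be told apart.

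Glyoxylate is a reactive intermediate that can be oxidised to oxalate, and an aminotransferase can turn it into glycine instead. The liver is the main site of this detoxification. Hydroxy acid oxidases such as Hao2 are peroxisomal flavoenzymes that pass electrons to oxygen and release hydrogen peroxide. Most amino acids are broken down in hepatocytes, where transamination moves their nitrogen onto aspartate and glutamate and the carbon skeletons enter central metabolism. Monoamine oxidases remove amines on the mitochondrial outer membrane, and sulfurtransferases of the matrix handle sulfide and cyanide.

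The feature that stood lowest belonged to Hao2, the oxidase of long-chain 2-hydroxy acids, and the lower features of the mitochondrial group belonged to Maob, the monoamine oxidase that prefers phenethylamine, and to Tst, rhodanese, which converts cyanide to thiocyanate. Each was at least 2-fold lower in the ANIT pool in the mean, with all 4 arrays below 0, which is the rule for calling a feature lower. By that rule 3 of the 8 features were lower and 0 were higher. Over all 1936 features 3.05% were lower and 0.775% were higher by the same rule. The other 5 features, which belonged to Fah, Got1, Agxt and the second Hao2 spot, did not reach 2-fold. If the values were natural logarithms, Fah and Got1 would also be lower, at 2.07-fold each, and the first Hao2 feature would be 7.01-fold, Maob 3.86-fold and Tst 3.34-fold lower.

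The sequences upstream of Hao2 and Maob are shown because these genes had the lowest ratios among the members with an entry in the RefSeq promoter table (build GRCr8). They are the 250 bases before the annotated start, 5′ to 3′ on the gene's strand. Capitals mark matches on either strand to TATAAA (the TATA box), GGGCGG (the GC box), CCAAT (the CCAAT box) and GTTAAC, which holds the core of the sequence bound by HNF1, a liver transcription factor.
Hao2, chr2:188913134-188913383, minus strand: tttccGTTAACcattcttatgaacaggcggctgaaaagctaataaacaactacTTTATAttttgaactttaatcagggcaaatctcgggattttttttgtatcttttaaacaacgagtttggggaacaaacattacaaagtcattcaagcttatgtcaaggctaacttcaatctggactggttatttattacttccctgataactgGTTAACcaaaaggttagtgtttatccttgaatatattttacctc
Maob, chrX:8490155-8490404, plus strand: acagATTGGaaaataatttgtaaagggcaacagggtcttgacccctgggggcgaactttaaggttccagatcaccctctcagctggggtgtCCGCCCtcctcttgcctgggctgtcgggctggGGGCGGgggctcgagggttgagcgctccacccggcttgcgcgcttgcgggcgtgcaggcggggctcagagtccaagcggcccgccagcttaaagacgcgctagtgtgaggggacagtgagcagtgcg

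The 2 upstream sequences differ in base composition. That of Hao2 was 33.2% G and C, with 3.77% of the 33469 promoters in the table below it, while that of Maob was 63.6% G and C, with 82.1% of promoters below it. GTTAAC, present in 2.36% of all promoters of this length, stood in the Hao2 sequence at 2 places, 245 and 44 bases before the start. That sequence also held 1 match to TATAAA, 197 bases before the start on the opposite strand, a word present in 12.9%. The percentages here cover promoters of every base composition. The Maob sequence held 2 matches to GGGCGG, present in 30.5% of promoters, and 1 to CCAAT, present in 34.0%, and no match overlapped another. Among the other members, the Fah sequence had 5 matches to GGGCGG, and the Got1 sequence had 2 matches to GGGCGG and 6 to CCAAT. Of the 2 Agxt entries, the upstream one held none of the 4 words and the downstream one held CCAAT once. These matches describe letters in the windows, and the array data say nothing about binding.

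The separate spots of Hao2 disagreed. On the first feature the log2 ratios were -1.85, -2.15, -2.16 and -1.64 on arrays 1 to 4, with a mean of -1.95 ± 0.25 (SD, n = 4 arrays), or 3.86-fold lower in the ANIT pool. The second feature had ratios of -0.04, 0.48, -0.06 and 0.36, with a mean of 0.18 ± 0.27. The first feature was low on every array and the second lay around 0, so that the ranges did not overlap. The first feature was the 12th lowest of all 1936 features, whereas 87.1% of features had a lower mean than the second.

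The difference between the Hao2 features was -2.13 ± 0.35 (first minus second) and lay between -2.63 and -1.81 on the single arrays. Of the 261 genes with exactly 2 features, the median span between their means was 0.17, and 98.9% of these genes had a smaller span than Hao2, which ranked 3rd. Most of these genes had no called feature. Of the 23 genes with several features and at least 1 of them called, 11 also had an uncalled feature, as Hao2 did, and in 12 all features were called. Where in the transcript each feature lies was not analysed here. Averaged over both features, Hao2 had a ratio of -0.88 ± 0.20, short of 2-fold.

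**Figure D1:**
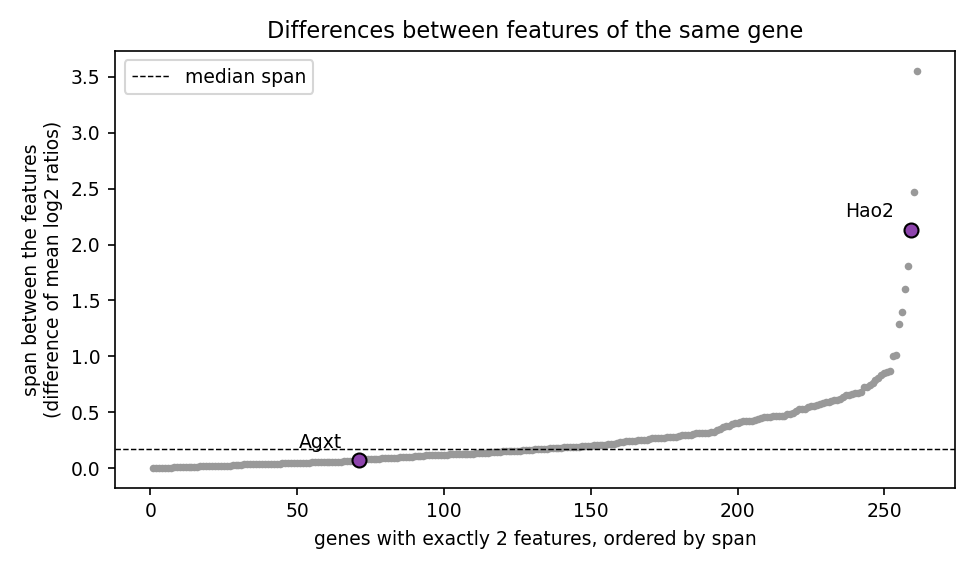
Span between the mean log2 ratios of the features of a gene (vertical axis, log2 units), for the 261 genes with exactly 2 features, ordered by span (horizontal axis, rank). Hao2, at 2.13, stands among the few largest spans, and Agxt, at 0.07, lies below the dashed median of 0.17.

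Agxt, the alanine-glyoxylate aminotransferase that turns glyoxylate into glycine, gave similar small ratios on both its features. The first feature had log2 ratios of -0.17, -0.53, -0.37 and -0.57 on arrays 1 to 4, with a mean of -0.41 ± 0.18. The second had -0.22, -0.47, -0.38 and -0.29, with a mean of -0.34 ± 0.11. All 8 values were below 0 and the features overlapped, with a difference of -0.07 ± 0.15. Neither mean was far from the median of all features, -0.25: 22.5% of features lay below the first and 35.0% below the second. In rat, Agxt is known to be made in a peroxisomal and a mitochondrial form from alternative starts of transcription, and these features were not assigned to either form.

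Agxt and the first Hao2 feature, grouped together as peroxisomal, therefore had unlike ratios. The first Hao2 feature was below both Agxt features on all 4 arrays, by -1.54 ± 0.32 and -1.61 ± 0.19, while the second Hao2 feature was above both on all 4 arrays, by 0.60 ± 0.44 and 0.52 ± 0.34. The 4 peroxisomal features had a median of -0.37 and a range from -1.95 to 0.18. This was the widest range of the compartments, and the other compartments had 2 features each.

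Fah, fumarylacetoacetate hydrolase, carries out the last step of tyrosine breakdown, and Got1 is the cytosolic aspartate aminotransferase, part of the malate-aspartate shuttle. Fah had log2 ratios of -0.71, -0.78, -0.57 and -0.84 on arrays 1 to 4, with a mean of -0.73 ± 0.12, or 1.65-fold lower in the ANIT pool. Got1 had -0.86, -0.49, -1.31 and -0.24, with a mean of -0.73 ± 0.46. The means coincided, with a difference of -0.00 ± 0.58 (Fah minus Got1), but the Got1 values spread widely around theirs and the Fah values did not. Got1 was lower on both arrays with ANIT in Cy5 (mean -1.08) than on both with ANIT in Cy3 (mean -0.37). Fah showed a smaller gap of the opposite sign, at -0.64 on arrays 1 and 3 against -0.81 on arrays 2 and 4. Both features lay near the lower end of the array, with 5.37% of features below Fah and 5.48% below Got1.

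Maob had log2 ratios of -1.50, -1.29, -1.71 and -0.90 on arrays 1 to 4, with a mean of -1.35 ± 0.35, or 2.55-fold lower in the ANIT pool. Tst had -1.17, -1.49, -0.98 and -1.20, with a mean of -1.21 ± 0.21, or 2.31-fold lower. All 8 values were below 0, and 1 of them in each gene fell short of a log2 ratio of -1. Maob and Tst overlapped, and each was the lower of the pair on 2 of 4 arrays (difference -0.14 ± 0.48, Maob minus Tst). They were the 31st and 43rd lowest features of the array.

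**Figure D2:**
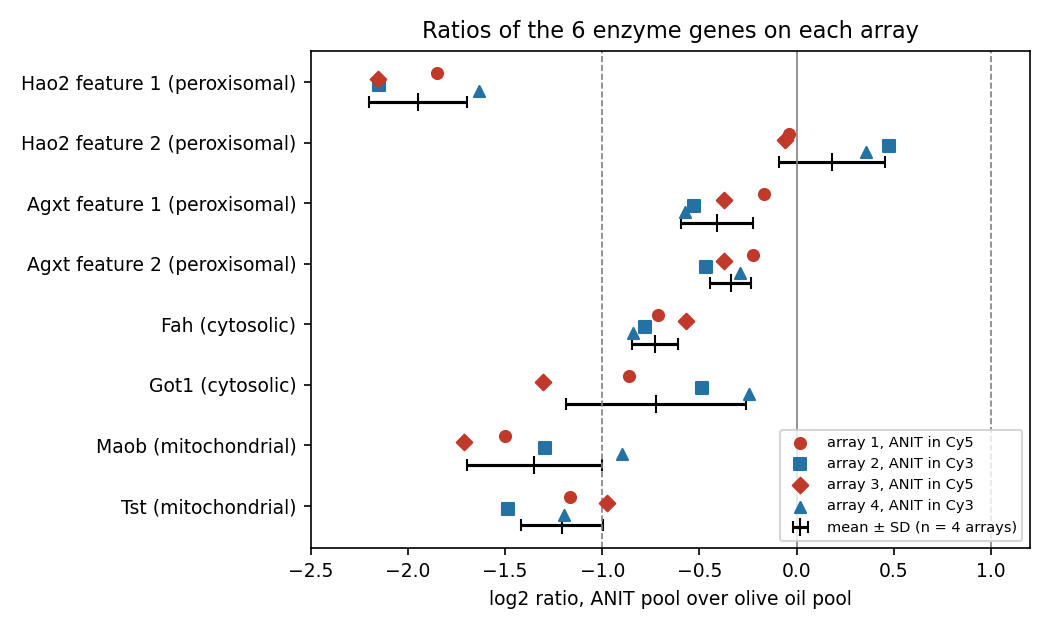
Log2 ratio, ANIT pool over olive oil pool (horizontal axis), of each feature of the 6 genes (rows) on each of the 4 arrays, with the mean and SD below the points and dashed lines at 2-fold. The first Hao2 feature lies between -2.16 and -1.64, the second between -0.06 and 0.48, and the Maob and Tst features lie around the lower dashed line or below it.

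In order of the means, the first Hao2 feature was lowest, followed by Maob, Tst, Fah and Got1 at the same value, the Agxt features and the second Hao2 feature. The first Hao2 feature was below every other member on all 4 arrays. Next to it stood Maob, from which it differed by -0.60 ± 0.24. Maob and Tst did not differ beyond the spread between arrays, nor did Fah and Got1, nor the Agxt features. The mitochondrial features had a median of -1.28, against -0.73 for the cytosolic features.

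Array by array, Maob was below Got1 on all 4 arrays, with a steady difference of 0.62 ± 0.16 (Got1 minus Maob). Tst was likewise below Fah on all 4 arrays, by 0.48 ± 0.16 (Fah minus Tst). Across these pairs the differences were less steady. Fah minus Maob came to 0.62 ± 0.46 and was as small as 0.05 on 1 array, and Got1 minus Tst came to 0.48 ± 0.63, with Tst below Got1 on 3 of 4 arrays. With 2 features in each group, the gap between mitochondrial and cytosolic enzymes says nothing about other enzymes of these compartments.

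The pairing follows the dye contrast, which is the part of a ratio that turns with the dyes, taken as the mean ratio with ANIT in Cy5 minus that with ANIT in Cy3, divided by 2. It was -0.36 for Got1 and -0.26 for Maob, but 0.09 for Fah and 0.14 for Tst. The Agxt features had 0.14 and 0.04, the first Hao2 feature -0.05 and the second -0.23. The median over all features was -0.40, so each member turned less with the dye than the typical feature, and 51.9% to 93.5% of features had a lower dye contrast than the members. For the first Hao2 feature, Maob and Tst the mean ratio was at least 2-fold lower in either orientation alone. With ANIT in Cy5 alone, however, 667 of the 1936 features were lower by the rule, against 55 with ANIT in Cy3 alone. Measured from the array median, Tst was at -0.49 and -0.33 on arrays 1 and 3, short of 2-fold, and at -1.80 and -1.54 on arrays 2 and 4. A dye contrast above -0.5, a limit chosen after seeing the data, was found for 1099 features, of which 4.82% were lower and 1.27% higher by the 2-fold rule.

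**Figure D3:**
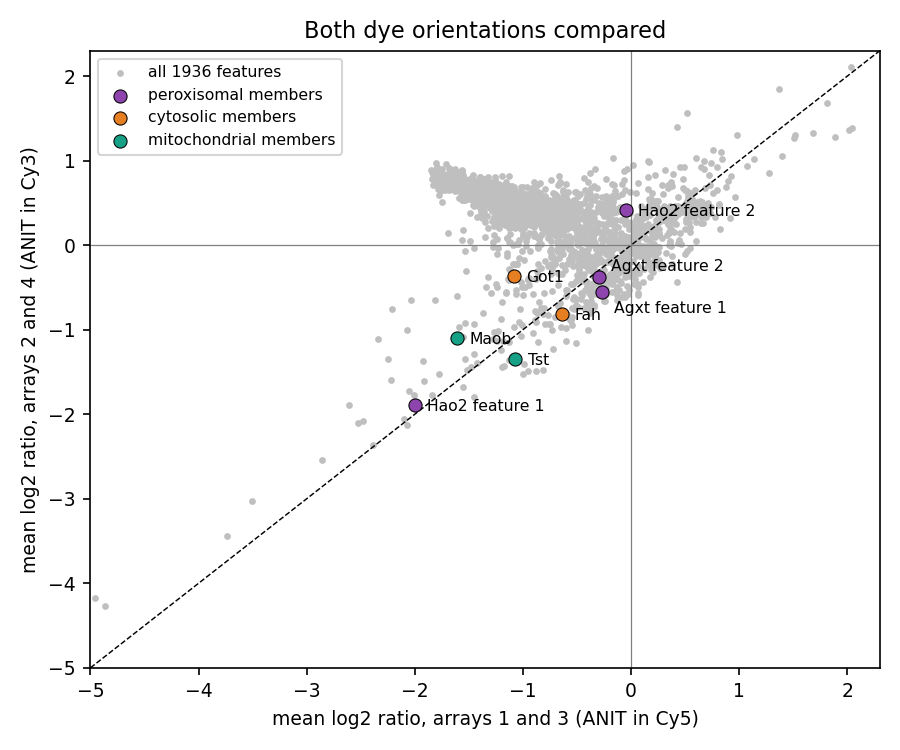
Mean log2 ratio on the arrays with ANIT in Cy3 (vertical axis) against that on the arrays with ANIT in Cy5 (horizontal axis) for all 1936 features (grey) and the 8 member features (coloured by compartment). The dashed line marks equal ratios. The first Hao2 feature lies close to the line, Got1 (-0.37 against -1.08) lies above it, and a large cloud of other features lies left of 0 and above 0.

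The position of a member among the features of its own array depended on the orientation as well. The arrays had medians of -0.68, 0.31, -0.64 and 0.35 (arrays 1 to 4). Fah lay in the middle of the features with ANIT in Cy5, with 48.7% and 53.4% of features below it on arrays 1 and 3, but near the bottom with ANIT in Cy3, with 4.70% and 3.62% below it on arrays 2 and 4. The Agxt features stood above the array median with ANIT in Cy5, with 64.2% to 71.1% of features below them, and low with ANIT in Cy3, with 5.89% to 12.0% below them. Tst showed the same shift, with 26.4% and 33.7% of features below it on arrays 1 and 3 and 1.34% and 1.86% on arrays 2 and 4. The first Hao2 feature was near the bottom of all 4 arrays, with at most 2.27% of features below it, and so was Maob with at most 11.2%.

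Repeats of 1 orientation measured the hybridisation error without the dye. Over all features the median absolute difference between arrays 1 and 3 was 0.14, and between arrays 2 and 4 it was 0.11. The members' repeat differences were 0.02 to 0.44 between arrays 1 and 3 and 0.04 to 0.51 between arrays 2 and 4. Between arrays 1 and 3 Got1 had the largest (0.44). Between arrays 2 and 4 the first Hao2 feature had the largest (0.51), followed by Maob (0.40). The 95th percentile over all features was 0.44 between arrays 1 and 3 and 0.38 between arrays 2 and 4. Got1 lay at the former, and the first Hao2 feature and Maob lay above the latter, so these features repeated less well than most. On these repeats the gap of 2.13 between the Hao2 features was several times the error, whereas the gap between Maob and Tst was within it.

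For each member the 3 features of other genes with the most similar ratios were found, by the root mean square difference over the 4 arrays. Nearest to the first Hao2 feature were Fasn, the fatty acid synthase (0.18), Slc22a8, an organic anion transporter (0.18), and 1 feature of Cyp8b1, which makes cholic acid (0.22). Nearest to Tst were features of the cytochromes P450 Cyp4f4 (0.13), Cyp2e1 (0.16) and Cyp27a1 (0.17). Nearest to Maob were Slc28a2, a nucleoside carrier (0.21), 1 feature of Spn, a leukocyte sialoglycoprotein (0.22), and Rab25, a small GTPase (0.23). All 9 of these features were lower by the 2-fold rule, which follows from picking them for closeness to members called lower. The other features of Cyp8b1 (-0.50) and Spn (-0.43) were not called. Of the 7 features of Cyp2e1, with means from -1.24 to -0.10, 2 were called. Both features of Cyp4f4 and both of Cyp27a1 were called.

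The members with small ratios had many features like them. Nearest to Fah were features of Cyp2d4 (0.09), the aldehyde dehydrogenase Aldh2 (0.10) and the apolipoprotein Apoa4 (0.11). Nearest to Got1 were Khk, the fructose kinase (0.13), the folate carrier Slc46a1 (0.15) and 1 of 5 features of the glucose carrier Slc2a4 (0.15). The first Agxt feature was closest to features of Ifngr2, C1qbp and Map3k1, and the second to features of Cox8a, Cd47 and Nr2f6. The second Hao2 feature was closest to features of Cdc23, Mylk3 and Hsf1. All these differences were 0.04 to 0.08. Among features with 1 symbol, 115 lay within a root mean square difference of 0.25 of the second Hao2 feature. For the Agxt features there were 100 and 156, each count including the other Agxt feature. For Fah there were 40 and for Got1 22. For the first Hao2 feature and for Maob there were 3 each, and for Tst 12. The likeness covers 4 arrays of the same pools and includes the shared dye effect.

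Genes of the surrounding pathways were sparse on the array. Of 128 other genes in 6 lists of related pathways, 9 were measured, and 0 of the 9 were lower or higher by their gene mean, against 3.55% lower and 0.626% higher over all 958 genes. Their median was -0.25, against -0.24 over all genes. No gene of the urea cycle list was measured, and Fah was the only measured gene of phenylalanine and tyrosine breakdown.

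Among the peroxisomal and glyoxylate enzymes, the urate oxidase Uox had log2 ratios of -0.28, -0.74, -0.51 and -0.40 on arrays 1 to 4, with a mean of -0.48 ± 0.20, close to the Agxt features. The epoxide hydrolase Ephx2 stood at 0.01 ± 0.17. With Hao2 and Agxt, these 4 genes had a median of -0.43. Among genes of transamination and other amino acid breakdown, Gcdh, the glutaryl-CoA dehydrogenase of lysine and tryptophan breakdown, stood at -0.57 ± 0.09, and Bckdk, the kinase that inhibits breakdown of branched-chain keto acids, at -0.32 ± 0.28. With Got1, these 3 genes had a median of -0.57.

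Besides Tst, the sulfur amino acid list held Gclm, the modifier subunit of the enzyme that starts glutathione synthesis, at 0.04 ± 0.23 over 3 features. In the amine and polyamine list of 5 measured genes Maob was the only gene called, and the list's median was -0.25. The histidine decarboxylase Hdc (-0.35 ± 1.17) and the diamine oxidase Aoc1 (-0.25 ± 0.73) followed the dye: their ratios were negative where Cy5 labelled the ANIT pool and positive where Cy3 did. The gene means of the polyamine genes Amd1 (-0.17 ± 0.45) and Odc1 (-0.02 ± 0.20) had the same sign pattern, with Amd1 at -0.52, 0.09, -0.59 and 0.33 and Odc1 at -0.13, 0.21, -0.24 and 0.09 on arrays 1 to 4. The medians of the arrays had this sign pattern too. Single features differed, with means of -0.29 and 0.26 for Odc1 and of -0.52 and 0.01 for Aoc1. The housekeeping genes Actb (-0.17 ± 0.21) and Hprt1 (-0.15 ± 0.39) were not past the rule either.

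**Figure D4:**
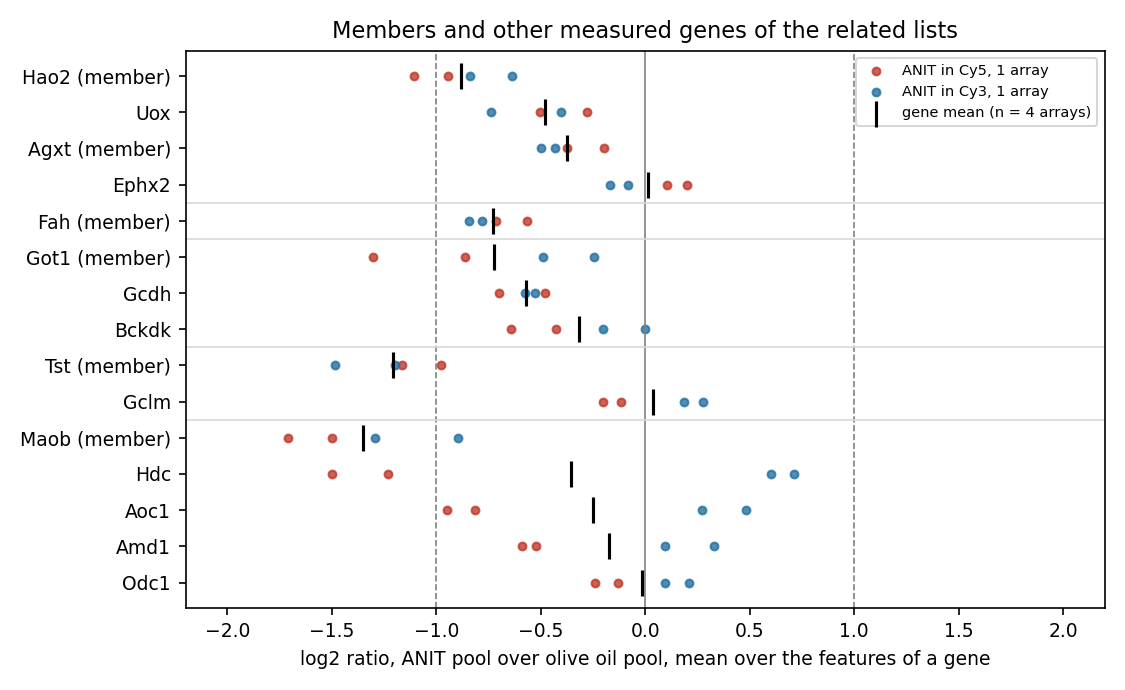
Log2 ratio, ANIT pool over olive oil pool, averaged over the features of each gene (horizontal axis) for the 6 members and the 9 other measured genes of the related lists (rows, with lines between the lists). Points are single arrays, black ticks the mean of 4 arrays and dashed lines 2-fold; Maob (-1.35) and Tst (-1.21) are the gene means beyond 2-fold.

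Markers of cell types were set beside these values. Of 13 listed hepatocyte markers 6 were measured, with gene means from -1.20 for Apoc1 to 0.07 for Apoa1. Apoc1 was lower by the rule. Cyp2e1 had a gene mean of -0.51 ± 0.44, with 2 of its 7 features lower by the rule. Serpina1 stood at -0.28 ± 0.96 and turned with the dye, between -1.14 and 0.57 on the single arrays. Ttr stood at -0.13 ± 0.27 and Tf at -0.00 ± 0.38. Of 12 cholangiocyte markers 4 were measured, with gene means from -0.55 to -0.13, and their median was -1.32 over arrays 1 and 3 against 0.50 over arrays 2 and 4. The cholangiocyte marker Aqp1 did not reverse and was below 0 on all 4 arrays, from -0.24 to -0.01. The 3 measured endothelial markers ranged from -0.44 to -0.22. Their median reversed as well, at -1.08 over arrays 1 and 3 against 0.41 over arrays 2 and 4. Kdr among them lay near 0 on arrays 2 and 4, at -0.07 and 0.01. The 3 markers of stellate cells and fibroblasts ranged from -0.44 to 0.13. The single measured neutrophil marker, S100a9, stood at -0.13 (-0.90 over arrays 1 and 3 against 0.64 over arrays 2 and 4) and the single lymphocyte marker, Il2rb, at -0.84, and no listed macrophage marker was measured. None of these markers of other cell types was past the rule, against 3.55% lower and 0.626% higher over all 958 genes. A marker whose sign turned with the dye could not pass the rule, whatever its mean. The absence of calls therefore says little about these cell types. The part of these markers in the ratios of the 6 enzymes was not tested.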

How the data were processed

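Liver RNA pools of ANIT and olive oil rats were compared on 4 two-channel cDNA arrays. The authors deposited a log ratio for every feature on each array, taken as log2. How the spots were scanned, corrected and normalized, the base and the sign convention are unstated in the labels and the file. A base of 10 is unlikely, since the value of largest size, 4.96, lies beyond 4.82, the most that uncorrected 16-bit signals allow on the log10 scale. Corrected signals could exceed that limit, and the correction used here is unknown. Values were used as deposited, without centring. The number of arrays limits the precision.

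Features were named through the platform annotation, and members were checked by gene ID against RefSeq (GRCr8). 1432 features carried 1 symbol, 19 several and 485 none. A feature was called at a mean of at least 1 log2 unit in size with 1 sign on all 4 arrays. Named were all member features, the 3 most similar features of each, and from each list of related genes those past the rule and up to 4 others with the largest gene means; single cell type markers were named after their values were seen. Members and lists were chosen with earlier results of these data known. Alternatives were other size limits, centring, single orientations, each array left out, the median over arrays, natural logarithms and gene means. Python 3.11.15 was used with pandas 2.3.3, numpy 2.4.6 and matplotlib 3.10.9.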

Additional observations from a re-analysis of the deposited data

Results flagged for a closer look

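Ttr, the plasma carrier of thyroid hormone listed as a hepatocyte marker, had a log2 ratio of -0.54 on array 3, far from its values of -0.00, 0.04 and -0.03 on arrays 1, 2 and 4. It was the only 1 of 61 sets of array values examined with a single array this far from the others. Chance alone gives such a flag in about 1 of 20 sets of values that vary alike. That rate is not exact here, since a dye effect splits the arrays into pairs and makes a flag less likely. None of the 8 member features had such an array, which says little for those that turned with the dye.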

How the results depend on the processing

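The first Hao2 feature, Maob and Tst stayed lower by the 2-fold rule with centred arrays, in either dye orientation alone, without any 1 array and with the median over arrays. Got1 was also lower with ANIT in Cy5 alone. The number of lower member features was 5 at 1.5-fold or with natural logarithms (Fah and Got1 added), 1 at 3-fold and 3 without any 1 array. By gene means 2 of the 6 member genes were lower, Maob and Tst. Over all features, lower and higher counts were 134 and 48 at 1.5-fold, 23 and 5 at 3-fold and 113 and 33 with natural logarithms. They were 58 to 61 and 13 to 15 without 1 array. By gene means, 34 of the 958 genes were lower and 6 were higher. With ANIT in Cy5 alone 667 features were lower. With centred arrays the split was 48 lower and 22 higher, against 59 and 15. The peroxisomal median was -0.21 with centred arrays and -0.63 by gene means, and the mitochondrial median was -1.11 with centred arrays. As natural logarithms the peroxisomal, cytosolic and mitochondrial medians were -0.54, -1.05 and -1.84, and the Hao2 span 3.08. Without 1 array these medians ranged from -0.42 to -0.33, -0.76 to -0.69 and -1.36 to -1.19, and the Hao2 span from 1.97 to 2.29. No paired analysis was possible because each condition is read as 1 pool. Without intensities the signal behind each ratio is unknown.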
